A study of Mus musculus with 21 samples.

Results

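The genes described here are Myc and the genes of its partners and antagonists: Myc, Mycn, Mycl1 (now named Mycl), Max, Mxd1, Mxd3, Mxd4, Mxi1, Mnt and Mlx. They were chosen by gene name, and all 10 had a probe on the array. The 10 genes were covered by 12 of the 55681 probes. A probe entered the tests where the sample signal was well above background on at least 3 arrays. That left 11 of the 12 probes and 9 of the 10 genes, among 21387 genes tested. The only Mxi1 probe was not well above background on any of the 21 arrays, so Mxi1 was not tested. Where a gene had several probes, the brightest one was used.

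The samples were organoids of mouse small intestine, made from crypts and kept in a gel with EGF, Noggin and R-spondin 1. All of them carried the same transgene, a doxycycline-inducible human ΔN89 β-catenin cDNA that lacks the N-terminal residues through which the protein is marked for destruction. Its promoter is a tetracycline-operator promoter, driven by the M2-rtTA activator under the ROSA26 promoter, and its protein carries an N-terminal myc tag. Cultures were grown with doxycycline and then held for 24 hours in one of 5 states. Doxycycline was withdrawn from 4 cultures (letters D to G). Compound 6 was given at 2 µM with doxycycline to 4 cultures (D to G), and compounds 2 and 9 were given at 2 µM with doxycycline to 3 cultures each (A to C). Vehicle was given with doxycycline to 7 cultures (A to G). The 3 compounds are related pyridines, substituted at positions 3, 4 and 5, that inhibit CDK8 and CDK19. These are alternative kinase subunits of Mediator, the complex that links transcription factors to RNA polymerase II. How strongly each compound inhibited the kinases in these cultures was not measured on the arrays. Doxycycline itself was removed together with the transgene's expression, so the effects of drug and transgene cannot be told apart.

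Each of the 21 arrays compared one sample (Cy3) with Universal Mouse Reference RNA (Cy5). Values below are log2 of sample over reference, and a level is relative to the reference for that probe only. Changes are the tested group minus the vehicles of the same letters, from one limma fit over all genes and arrays. Compound 6 and compounds 2 or 9 were given to different letters, so a difference between them is the difference of their changes, each against its own vehicles, and not of their levels. A gene passed the test at a Benjamini-Hochberg adjusted p under 0.05 over all genes. Letters A to C and letters D to G were scanned on different days, so letter set and scan cannot be told apart. Arrays of the same letter deviated together, and the fit with the letter as a block is given where it changed the call of a member. For the gene lists it is given only in part. The labels do not say whether letters are separate cultures or animals, so p-values cover only the spread among these arrays, which may be technical. All 8 epithelial markers were well above background on every array. So were 5 of 7 fibroblast markers (such as Col1a1 and Vim), 6 of 7 leukocyte markers and 2 of 5 endothelial markers (Pecam1 and Kdr). The median Cy3 signal of the tested markers, as log2 over each array's 75th percentile, differed between lists. It ran from 6.09 to 6.82 for epithelial, 0.75 to 1.36 for leukocyte, -1.43 to -0.72 for fibroblast and -3.49 to -1.16 for endothelial markers. The fibroblast marker Lum and the endothelial marker Cdh5 were well above background on 0 of 21 arrays. Arrays of letter F stood apart. Among the 26 groups of 4 arrays, 1 for each gene and treatment, letter F lay farthest from its neighbours in 19.

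Myc is a transcription factor that binds the E-box, the letters CACGTG, as a dimer with Max, and drives genes of growth, ribosome production and cell division. Mycn and Mycl1 encode relatives that also pair with Max. The products of Mxd1, Mxd3, Mxd4, Mxi1 and Mnt compete for Max and repress through corepressors, and Mlx is a Max-like partner for some of the repressors and for glucose-sensing factors. In intestinal epithelium, MYC is a classical target of β-catenin and TCF.

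Myc fell after doxycycline withdrawal and was the member with the largest change. Its probe lies at chr15:61821417-61821476 on the plus strand in mm9, the build of the array annotation. The level was -3.25, -3.14, -3.28 and -3.37 in withdrawn cultures D, E, F and G, against -0.90, -0.72, -2.12 and -0.97 in vehicles D, E, F and G. The groups did not overlap, and vehicle F lay nearest to the withdrawn cultures. The change was -2.08 ± 0.22 (SE; limma adjusted p = 1.54e-05), 0.236 times the vehicle level, with 4 of 4 letters lower. On the 2 slides that held both groups the difference was -1.86 and -2.50. The background correction adds an offset that shrinks large differences, and Agilent's own log ratios gave -2.77. Whether the Myc probe detects the transgene's myc tag was not tested. In these bulk samples, fewer cells expressing a gene and less RNA per cell cannot be told apart.

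Compound 6 left Myc near the vehicles, and the difference from withdrawal passed the test. The level was -1.29, -1.29, -1.57 and -1.04 with compound 6 in cultures D, E, F and G, inside the range of the vehicles of the same letters. The change was -0.12 ± 0.22 (95% interval -0.58 to 0.33; limma adjusted p = 0.73). This rested on vehicle F: without it the change was -0.44 (limma adjusted p = 0.0174). Letters D, E and G were lower with compound 6 and letter F was higher. Compound 6 lay above withdrawal by 1.96 ± 0.22 (limma adjusted p = 9.69e-06), in 4 of 4 letters.

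In letters A to C, Myc was low in all 3 groups. The level was -2.92, -2.47 and -2.89 with compound 2, and -2.86, -2.58 and -2.76 with compound 9, against -3.01, -2.52 and -2.86 in vehicles A, B and C. In letters D to G Myc averaged -3.26 ± 0.09 after withdrawal, against -1.18 ± 0.64 in vehicles (SD, n = 4 each), and vehicles A to C averaged -2.80 ± 0.25 (SD, n = 3). The change was 0.04 (95% interval -0.49 to 0.57) with compound 2 and 0.06 (-0.46 to 0.59) with compound 9, and neither passed. No withdrawn culture was measured in letters A to C, so how far Myc could fall there was not measured. Among the 3 pairs of compounds, the differences between the Myc changes were -0.16 (-0.86 to 0.54) for compound 6 against compound 2, -0.18 (-0.88 to 0.51) for compound 6 against compound 9 and 0.02 (-0.50 to 0.55) for compound 9 against compound 2. None passed, and the intervals leave room for differences in both directions.

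**Figure D1:**
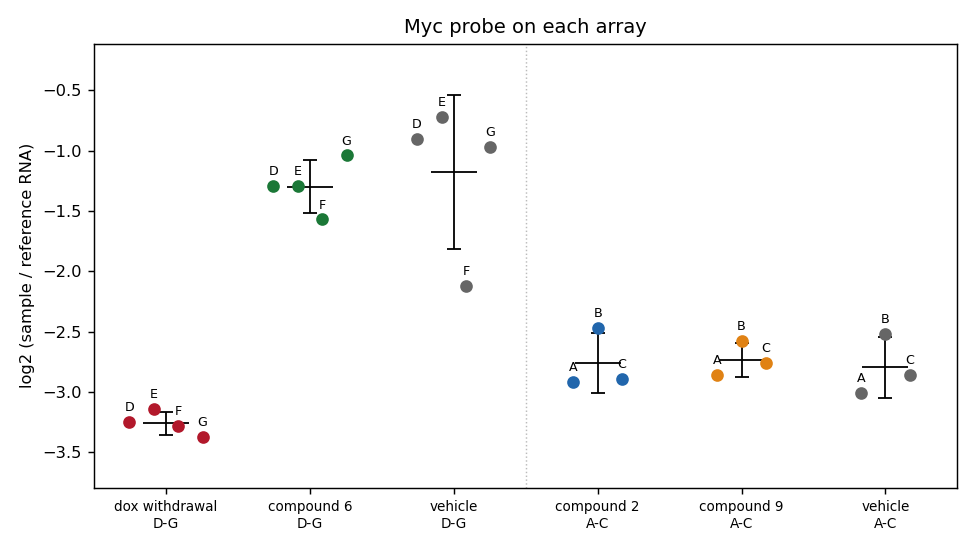
Myc level on each array as log2 of sample over reference RNA, by treatment and letter set, with letters beside the points and bars showing mean and SD. Withdrawn cultures lie between -3.37 and -3.14, below every vehicle of letters D to G (-2.12 to -0.72), while all arrays of letters A to C lie between -3.01 and -2.47.

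Mycn, the relative best known from neural and embryonic cells, was higher with compound 6 once cultures of the same letter were compared. Its probe lies at chr12:12943193-12943252 on the minus strand (mm9). The level was 2.30, 2.19, 0.39 and 1.75 with compound 6 in cultures D, E, F and G, against 1.06, 1.22, -0.14 and 0.74 in vehicles D, E, F and G. Letter F was the lowest in both groups, and the groups overlapped through it, though each letter was higher with compound 6. The change was 0.94 ± 0.39 (limma adjusted p = 0.0829), and with the letter as a block the adjusted p was 3.63e-06. Without any letter F array the change was 1.08 (limma adjusted p = 0.000158). On the 3 slides that held both groups the difference was 1.84, 0.75 and -0.34. The negative one came from a slide with compound 6 F and vehicle G, a pair of different letters. The largest set compound 6 D against vehicles D and F, and within letter D the difference was 1.24.

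Withdrawal gave Mycn levels of 1.03, 0.89, -0.72 and 0.38 in cultures D, E, F and G. The probe was well above background on 3 of these 4 arrays. The level in culture F lay inside the background range of letters A to C (-0.86 to -0.50), so differences from withdrawal F rest on a level near background. The change against vehicle was -0.32 ± 0.39 (limma adjusted p = 0.597, and 0.0145 with the letter as a block), with 4 of 4 letters lower. Compound 6 was above withdrawal by 1.26 ± 0.39 (limma adjusted p = 0.0326), in 4 of 4 letters. Leaving out single arrays gave adjusted p values up to 0.12 for that difference, with 5 of the 8 fits no longer passing: those without compound 6 D, E or G, or withdrawal F or G. It also did not pass with Agilent's log ratios, the Cy3 channel alone, the series matrix, only the arrays compared or no set term. In letters A to C the Mycn probe was not well above background on any array, with compound 2, compound 9 or vehicle, so no fold is given there. For the same reason Mycn gives no comparison of compound 6 with compound 2 or compound 9.

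The windows around the start sites of Mycn, Max and Mlx are shown because these members changed against vehicle with the letter as a block and their windows held a motif of Myc or of TCF/LEF factors. Promoter windows of 300 bases came from RefSeq (GRCm38.p6), from 250 bases before to 50 after the start, and 9 of the 10 genes had an entry. The gene without an entry was Myc itself, so no window of Myc was searched for either motif. The E-box CACGTG and the TCF/LEF motifs CTTTGAA and CTTTGAT were searched on both strands, and both TCF/LEF motifs share their first 6 letters. CACGTG was in 7.15% of all 32851 promoter windows and in those of Max, Mlx, Mnt and Mxd4. CTTTGAA was in 5.14% of windows, among the members in that of Mycn, where it lies on the opposite strand and so reads TTCAAAG. The other form, CTTTGAT, was in 3.73% of windows and in none of the members' windows that were searched. Capitals mark the motifs, all windows read 5′ to 3′ on the gene's strand, and a match is a description of letters only.
Mycn, chr12:12941787-12942086, minus strand: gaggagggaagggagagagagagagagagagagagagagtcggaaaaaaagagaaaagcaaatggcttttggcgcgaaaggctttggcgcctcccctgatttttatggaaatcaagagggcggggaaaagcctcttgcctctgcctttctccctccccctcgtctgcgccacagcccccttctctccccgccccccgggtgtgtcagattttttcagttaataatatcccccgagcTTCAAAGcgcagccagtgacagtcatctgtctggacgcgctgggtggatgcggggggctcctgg
Max, chr12:76962199-76962498, minus strand: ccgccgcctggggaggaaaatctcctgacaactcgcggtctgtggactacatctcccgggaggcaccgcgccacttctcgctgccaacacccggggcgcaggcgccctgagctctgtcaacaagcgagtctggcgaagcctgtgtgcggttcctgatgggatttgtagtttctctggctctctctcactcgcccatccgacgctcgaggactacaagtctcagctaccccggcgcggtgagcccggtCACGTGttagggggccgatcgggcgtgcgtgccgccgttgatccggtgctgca
Mlx, chr11:101087040-101087339, plus strand: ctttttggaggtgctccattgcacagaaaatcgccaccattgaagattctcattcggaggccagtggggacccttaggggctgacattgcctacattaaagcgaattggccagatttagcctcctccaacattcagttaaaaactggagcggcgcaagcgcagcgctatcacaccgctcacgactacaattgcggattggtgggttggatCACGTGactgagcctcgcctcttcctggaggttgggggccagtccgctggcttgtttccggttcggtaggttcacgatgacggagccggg

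Mycl1, another relative of Myc, had small changes. Its changes were -0.10 ± 0.07 after withdrawal, 0.07 ± 0.07 with compound 6, 0.27 ± 0.08 with compound 2 and 0.07 ± 0.08 with compound 9. With compound 2 the level was -3.66, -3.78 and -3.70 in cultures A, B and C, against -3.99, -3.99 and -3.98 in vehicles A, B and C. The groups did not overlap, and the limma adjusted p was 0.0612, or 0.0363 with the letter as a block. All 21 arrays lay between -3.99 and -3.35, far below the reference RNA for this probe.

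Max, the common partner, was higher with compound 2, compound 6 and withdrawal in every letter, but passed the test over all arrays with the letter as a block and not without it. When single arrays were left out it passed in 1 of 6 fits for compound 2, 2 of 8 for compound 6 and 1 of 8 for withdrawal. Its probe lies at chr12:78038272-78038331 on the minus strand (mm9). With compound 2 the level was 1.96, 2.47 and 1.94 in cultures A, B and C, against 1.41, 1.96 and 1.36 in vehicles A, B and C. Culture B was the highest in both groups, which made the groups overlap. The change was 0.55 ± 0.19 (limma adjusted p = 0.114, and 4.72e-05 with the letter as a block).

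With compound 6 the Max level was 0.62, 0.84, 1.18 and 0.81 in cultures D, E, F and G, against 0.24, 0.32, 0.78 and 0.40 in vehicles D, E, F and G. Culture F was again the highest in each group. The change was 0.43 ± 0.17 (limma adjusted p = 0.0687, and 3.33e-05 with the letter as a block). After withdrawal the level was 0.68, 0.74, 0.94 and 0.80, a change of 0.35 ± 0.17 (limma adjusted p = 0.137, and 0.00016 with the letter as a block). Within slides the Max difference was 0.53 and 0.58 with compound 2, 0.11, 0.51 and 0.78 with compound 6, and 0.29 and 0.47 after withdrawal.

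With compound 9 the Max level lay close to vehicle. It was 1.46, 1.94 and 1.38 in cultures A, B and C, a change of 0.02 ± 0.19 (95% interval -0.38 to 0.43). Compound 9 was below compound 2 by 0.53 ± 0.19 in 3 of 3 letters (change -0.53; limma adjusted p = 0.138, and 7.4e-05 with the letter as a block). Compound 6, set against compound 9 through their own vehicles, lay at 0.41 ± 0.25 (limma adjusted p = 0.384, and 0.00421 with the letter as a block). The Max changes with compounds 6 and 2 differed by -0.12 (95% interval -0.65 to 0.41).

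Among the antagonists, Mxd1, a repressor linked to differentiating cells, was higher after withdrawal in the 3 letters that could be compared, and over all arrays passed with the letter as a block and not without it. Its level was 3.22, 3.42 and 3.92 in withdrawn cultures D, E and F, against 2.60, 2.61, 3.70 and 2.85 in vehicles D, E, F and G. The spot on withdrawal G was non-uniform and left out, so 3 withdrawn arrays entered. The change was 0.58 ± 0.26 (limma adjusted p = 0.122, and 0.00028 with the letter as a block), and a second Mxd1 probe, measured on all 4, gave 0.61 ± 0.32. The only slide with both groups measured gave 0.91, with withdrawn D, E and F set against vehicle E alone. Within letters D, E and F the difference was 0.62, 0.81 and 0.22. Without vehicle F the change was 0.83 (limma adjusted p = 0.00887).

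With compound 6 the Mxd1 level was 2.47, 2.58, 3.65 and 3.05, a change of 0.00 ± 0.25 (0.23 ± 0.32 for the second probe), and compound 6 lay 0.58 below withdrawal (change -0.58 ± 0.25; limma adjusted p = 0.137, and 0.000315 with the letter as a block). The second probe gave -0.38 ± 0.32 there (limma adjusted p = 0.468). With compound 2 the level was 4.24, 4.35 and 3.99, against 3.79, 3.99 and 3.67 in vehicles A, B and C. That change was 0.38 ± 0.29 (limma adjusted p = 0.569, and 0.0238 with the letter as a block). Compound 9 lay at -0.03 ± 0.29, and below compound 2 in 3 of 3 letters (change -0.40 ± 0.29; limma adjusted p = 0.554, and 0.0175 with the letter as a block).

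Mxd3, a repressor found in dividing cells, fell with both compound 6 and withdrawal. Its probe was dim, well above background on 5 of 21 arrays, 3 of them the vehicles of letters D, E and G. The level was -2.08, -2.06, -2.48 and -2.19 in withdrawn cultures D, E, F and G and -2.32, -2.14, -1.96 and -2.14 with compound 6, against -1.49, -1.27, -2.28 and -1.53 in vehicles D, E, F and G. Vehicle F lay among the treated cultures. The change was -0.56 ± 0.15 after withdrawal (limma adjusted p = 0.0152) and -0.50 ± 0.15 with compound 6 (limma adjusted p = 0.0249).

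Since no withdrawn or compound 6 array had Mxd3 well above background, only a bound can be given. On each treated array the level was taken as its own signal, or as that array's weakest signal well above background if higher. The mean log2 Cy3 signal was 6.8 in both treated groups and 7.28 in the vehicles, which gave a bound of 1.39-fold in both comparisons. Vehicle F, itself not well above background, is in the vehicle mean, so this bound is approximate. Each call was lost when single arrays were left out, with adjusted p up to 0.0725 after withdrawal (without withdrawal F, or vehicle D, E or G) and up to 0.104 with compound 6 (without compound 6 D, or vehicle D, E or G). Without vehicle F the changes were -0.77 and -0.71. The withdrawal call was lost with Agilent's log ratios, though the change was larger there (-1.78; limma adjusted p = 0.0731), while compound 6 gave -2.26 (0.0233). Within slides the Mxd3 difference was -0.30 and -0.94 after withdrawal, and -0.43, -0.87 and -0.43 with compound 6. In letters A to C the probe was near background throughout, from -2.39 to -2.11.

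Mxd4 and Mnt, 2 further repressors, and Mlx had small changes. Mxd4 moved by 0.07 ± 0.07 after withdrawal, 0.04 ± 0.07 with compound 6, 0.17 ± 0.08 with compound 2 and 0.02 ± 0.08 with compound 9, and none passed. Its second, dimmer probe gave 0.22 ± 0.14, 0.27 ± 0.14, 0.35 ± 0.16 and -0.02 ± 0.16 in the same order. Mnt moved by 0.06 ± 0.06 after withdrawal, -0.11 ± 0.06 with compound 6, 0.13 ± 0.07 with compound 2 and 0.02 ± 0.07 with compound 9. Compound 6 lay below withdrawal in Mnt in 4 of 4 letters, by a change of -0.17 ± 0.06 (limma adjusted p = 0.0763, and 0.0313 with the letter as a block).

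The Mlx level was 2.54, 2.58, 2.77 and 2.57 in withdrawn cultures D, E, F and G, against 2.13, 2.22, 2.66 and 2.26 in vehicles D, E, F and G. Each letter was higher after withdrawal, by 0.30 ± 0.12 in the fit (limma adjusted p = 0.091, and 0.00161 with the letter as a block), and by 0.17 and 0.41 within slides. The change was 0.14 ± 0.12 with compound 6, 0.11 ± 0.14 with compound 2 and -0.06 ± 0.14 with compound 9.

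**Figure D2:**
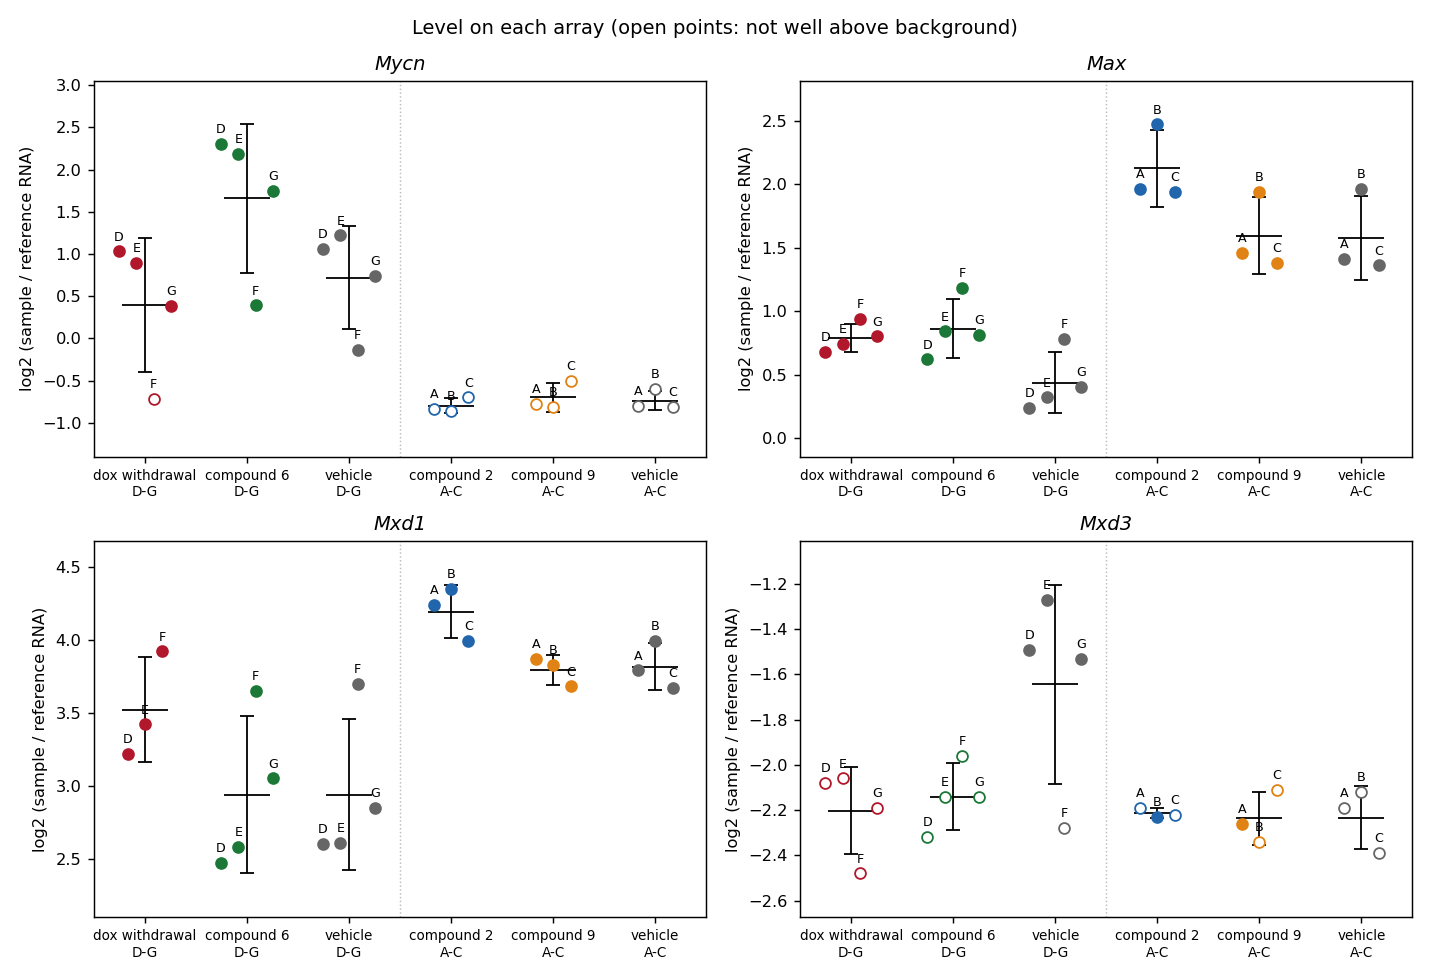
Levels of Mycn, Max, Mxd1 and Mxd3 on each array as log2 of sample over reference RNA, by treatment and letter set, with mean and SD bars and open points where the sample signal was not well above background. Letter F separates from D, E and G in most groups, and Mycn lies between -0.86 and -0.50 on every array of letters A to C.

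Counted over the 9 measured members, 2 fell after withdrawal (Myc and Mxd3) and none rose, where 20.7% of all genes changed, 13.4% downward and 7.27% upward. At 2 of 9, the share of members was near that of all genes. The split of all genes depended on the scaling: 35.1% of the called genes rose, against 47.1% with Agilent's log ratios, 46.1% with the series matrix and 58% with the Cy3 channel alone. With the letter as a block 3 fell (Mycn joined) and 3 rose (Max, Mxd1 and Mlx), where 39.1% of all genes changed. Without vehicle F, 5 members changed (Myc, Max, Mxd1, Mxd3 and Mlx), where 34.5% of all genes did (21.7% fell). With compound 6, 1 member fell (Mxd3), where 24.8% of all genes changed (11.4% up, 13.4% down). With the letter as a block Mycn and Max rose as well, where 41.3% of all genes changed. Without vehicle F, 3 members changed (Myc, Max and Mxd3), where 34.2% of all genes did (20.2% fell).

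With compound 2 no member passed, where 5.3% of all genes did (3.31% up, 2% down), and with the letter as a block Mycl1, Max and Mxd1 rose, where 17.3% of all genes changed. With compound 9 no member passed, nor did any gene (0% of 21387 in limma), and the letter as a block gave 1 gene, 0.00468%. Between compound 6 and withdrawal, Myc and Mycn were higher with compound 6 and no member was lower, where 15% of all genes changed (7.29% up, 7.71% down). With the letter as a block Mxd1 and Mnt were also lower with compound 6, where 34.1% of all genes changed.

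Between the compounds no member passed in limma. The change with compound 6 differed from that with compound 2 in 0.566% of all genes (0.346% higher, 0.22% lower) and from that with compound 9 in 6.49% (3.82% higher, 2.67% lower). Compound 9 differed from compound 2 in 4.8% (1.5% higher, 3.31% lower). With the letter as a block, the change in Max was larger with compound 6 than with compound 9, where 21.8% of all genes differed. Mycn was called for compound 6 against both, but its probe was at background in letters A to C, so this restates its change against vehicle (9.2% of all genes differed between compounds 6 and 2). Max and Mxd1 were lower with compound 9 than with compound 2, where 15.9% did. Scaling moved these splits as well. With compound 2, 62.3% of the called genes rose, against 48.9% with Agilent's log ratios. For compound 9 against compound 2, 31.2% were higher, against 46% and 46.1% in the fits of Agilent's log ratios and of Cy3 alone. For compound 6 against compound 2, 61.2% were higher, against 78.4% with the Cy3 channel alone. For compound 6 against withdrawal, 48.6% were higher, against 35% with the Cy3 channel alone.

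**Figure D3:**
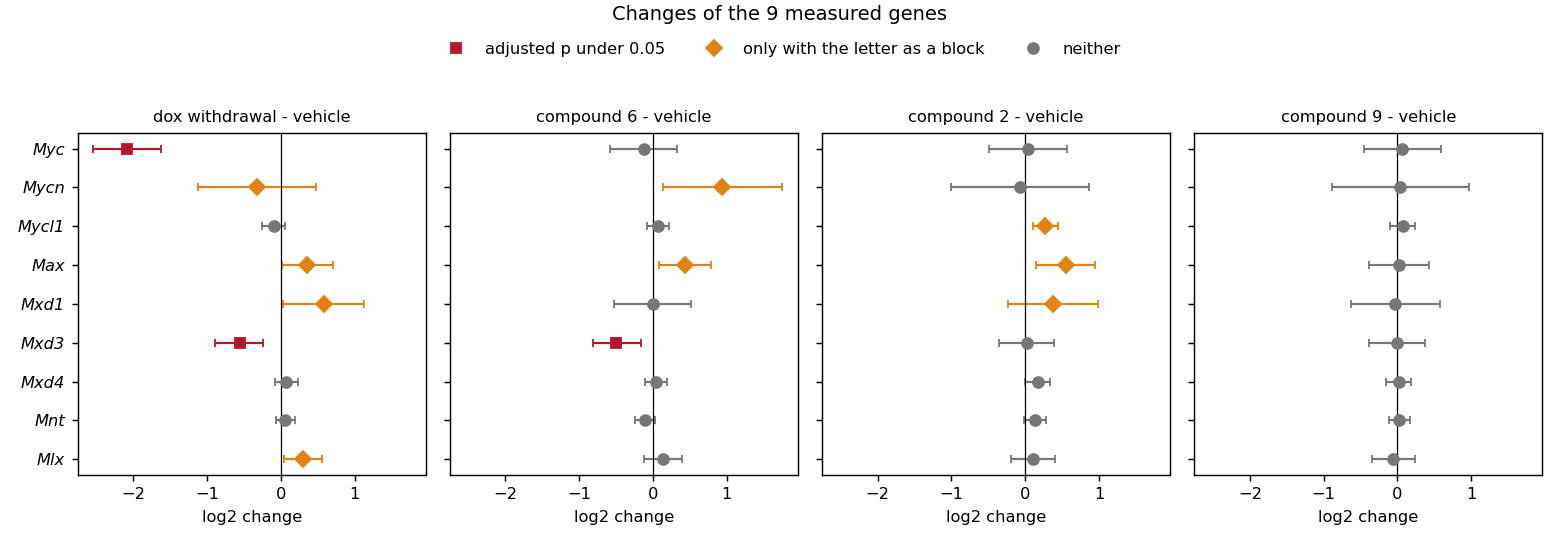
Log2 change of each measured gene against vehicles of the same letters (points) with 95% intervals (lines) in 4 comparisons. Squares passed the test in limma, diamonds passed only with the letter as a block, and Myc after withdrawal, at -2.08, is the farthest from 0.

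Genes that Myc is known to activate fell together with Myc after withdrawal. Of 24 such genes 20 fell, where 13.4% of all genes fell. None rose and 4 did not pass, with a median change of -0.78 where the median of all genes was -0.01. With other scalings 18 to 20 fell, and 16 to 21 fell when single arrays were left out. The list and all others below were chosen with earlier results of these data known. Ccnd2, which encodes cyclin D2, averaged -1.93 ± 0.26 in withdrawn cultures, against 0.68 ± 0.94 in vehicles (SD, n = 4 each), a change of -2.62 ± 0.35 (limma adjusted p = 0.000167). Nop56, a nucleolar factor of ribosome assembly, averaged -2.94 ± 0.40, against -1.32 ± 1.09 in vehicles (SD, n = 4 each), a change of -1.61 ± 0.36 (limma adjusted p = 0.00481). Fbl, Apex1 and Srm, for rRNA methylation, DNA repair and spermidine synthesis, changed by -1.40, -1.41 and -1.24. Cad, Hk2, Ldha and Prdx3 did not pass. Ppat, which encodes the first enzyme of purine synthesis, was above background on none of the withdrawn arrays, and vehicles were at least 1.7-fold higher (limma adjusted p = 0.00147).

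Fewer genes of the list fell with compound 6: 7 of 24 fell, where 13.4% of all genes fell. None rose and 17 did not pass, with a median of -0.34 where that of all genes was -0.03. Those that fell were Ccnd2, Ncl, Pa2g4, Ldha, Odc1, Ddx18 and Eif4e. Ccnd2 averaged -0.67 ± 0.68 with compound 6 (SD, n = 4), a change of -1.36 ± 0.35 (limma adjusted p = 0.00837). Ncl, nucleolin, averaged -2.20 ± 0.35 with compound 6, against -1.41 ± 0.62 in vehicles (SD, n = 4 each), a change of -0.79 ± 0.22 (limma adjusted p = 0.0128). The count depended on single arrays. Without vehicle F 20 of 24 fell, where 20.2% of all genes fell, with a median of -0.55. Without vehicle E 2 fell, without vehicle D or compound 6 F 3 did, and without vehicle G 4 did. The letter as a block gave 17, where 41.3% of all genes changed, and the Cy3 channel alone 4. Both comparisons share their 4 vehicles. Tested directly, 8 of the 24 were higher with compound 6 than after withdrawal and none was lower. Of all genes 7.29% were higher and 7.71% lower. With the letter as a block 16 were higher and 1 was lower, where 34.1% of all genes changed. Apex1 was higher with compound 6 than after withdrawal by 1.06 ± 0.18 and Ccnd2 by 1.26 ± 0.35 (limma adjusted p = 0.00068 and 0.02).

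In letters A to C, 1 of the 24 changed with compound 2, where 5.3% of all genes did, a share near that of all genes. None changed with compound 9, where 0% of all genes did. With the letter as a block, 2 rose and 4 fell with compound 2, where 17.3% of all genes changed. In that fit none changed with compound 9, where 0.00468% of all genes did. Odc1, ornithine decarboxylase and a standard Myc target, averaged -0.34 ± 0.13 with compound 2 and 0.26 ± 0.08 with compound 9, against 0.38 ± 0.12 in vehicles A to C (SD, n = 3 each). The change with compound 2 was -0.72 ± 0.13 (limma adjusted p = 0.00344), and compound 9 was above compound 2 by 0.60 ± 0.13 (limma adjusted p = 0.0122). Myc itself, as above, did not pass with compound 2. The Odc1 change was -0.37 ± 0.12 with compound 6 and -0.40 ± 0.12 after withdrawal, both past the test.

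**Figure D4:**
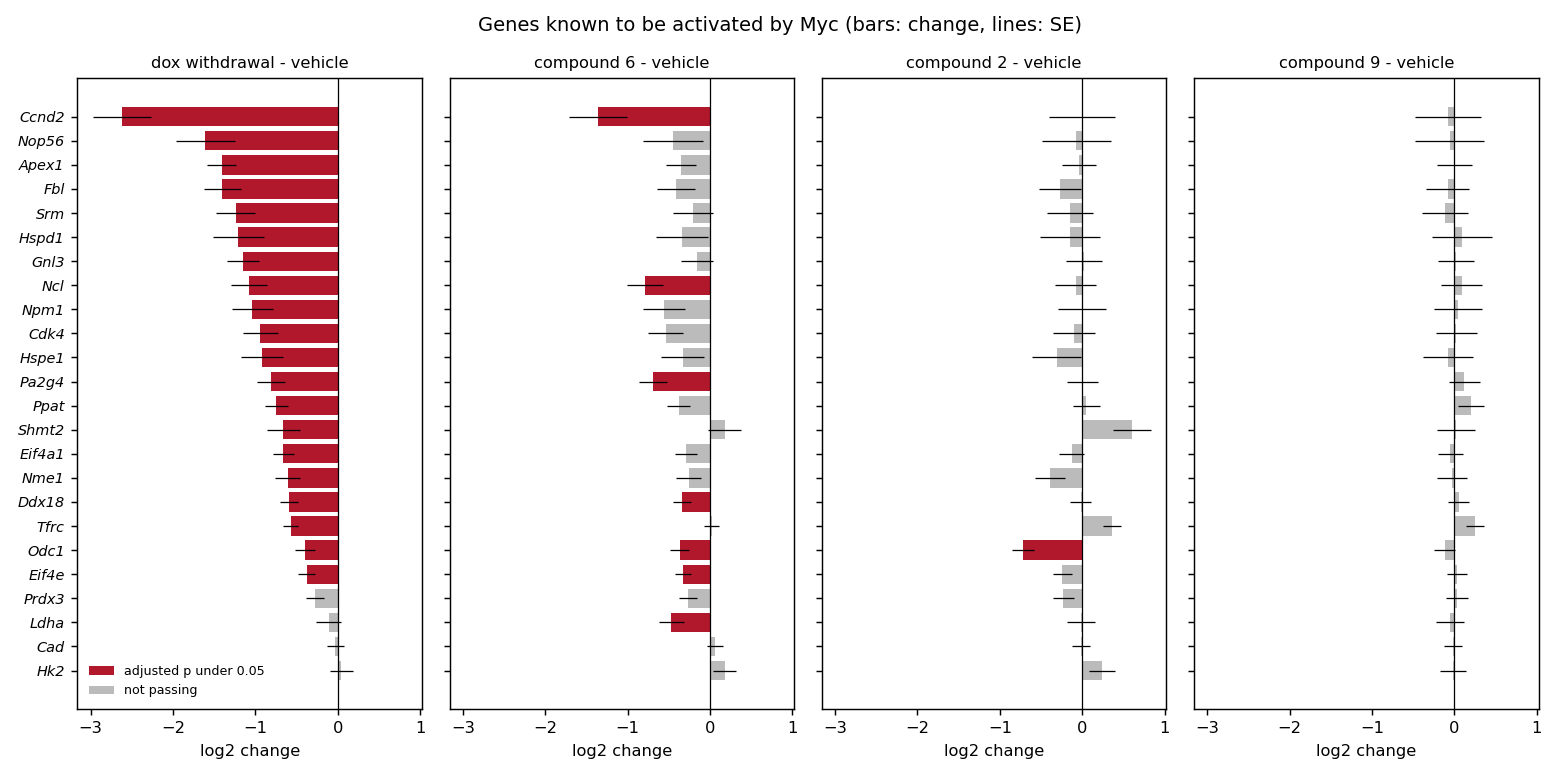
Log2 change (bars) and SE (lines) of 24 genes known to be activated by Myc in 4 comparisons against vehicles of the same letters, ordered by the change after withdrawal. Red bars passed the test in limma: 20 after withdrawal, 7 with compound 6, 1 with compound 2 (Odc1) and 0 with compound 9.

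Of 6 genes that Myc is known to repress, Cdkn2b, which encodes the cell-cycle inhibitor p15, rose in 3 of the 4 comparisons. It averaged 1.54 ± 0.19 in withdrawn cultures and 1.87 ± 0.28 with compound 6, against 0.91 ± 0.44 in vehicles D to G (SD, n = 4 each). With compound 2 it averaged 3.18 ± 0.04 and with compound 9 2.26 ± 0.17, against 2.30 ± 0.11 in vehicles A to C (SD, n = 3 each). The changes were 0.62 ± 0.17 after withdrawal, 0.96 ± 0.17 with compound 6 and 0.88 ± 0.20 with compound 2 (limma adjusted p = 0.0148, 0.000558 and 0.0127). Compound 9 was below compound 2 in Cdkn2b (change -0.91 ± 0.20; limma adjusted p = 0.0103), and the change against own vehicles was larger with compound 6 than with compound 9, by 0.99 ± 0.26 (limma adjusted p = 0.0301). Gadd45a and Ndrg2, stress and differentiation genes, also rose with compound 2, by 0.23 ± 0.06 and 0.34 ± 0.10. With compound 2 thus 3 of 6 rose, where 3.31% of all genes rose, and the list's median was 0.33, where that of all genes was 0.00. After withdrawal and with compound 6, Cdkn2b was the only gene of the list called and 5 did not pass. Of all genes 7.27% and 11.4% rose there. The list's median was 0.08 in both, where that of all genes was -0.01 and -0.03. The count of 3 with compound 2 was 0 without compound 2 A or vehicle C or with the Cy3 channel alone. It was 1 without compound 2 B or vehicle A or with Agilent's log ratios. The single call after withdrawal was lost without withdrawal F, vehicle D or vehicle E. Cdkn1a, which encodes p21, was not called in any of these comparisons.

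The coactivators and binding partners of Myc fell in part. After withdrawal 5 of 9 measured fell and none rose, where 13.4% of all genes fell (median -0.43, against -0.01 for all genes): Kat2a (-1.22 ± 0.23), Ruvbl1 (-0.95 ± 0.14), Ruvbl2 (-0.50 ± 0.09), Actl6a (-0.49 ± 0.11) and Wdr5 (-0.43 ± 0.12). Kat2a encodes a histone acetyltransferase, and Ruvbl1 and Ruvbl2 encode paired ATPases of chromatin complexes. With compound 6, 3 of 9 fell: Actl6a (-0.34 ± 0.11), Bptf (-0.26 ± 0.08) and the acetyltransferase gene Kat5 (-0.34 ± 0.08). Of all genes 13.4% fell with compound 6. Without vehicle F 7 fell, where 20.2% of all genes fell, and the letter as a block also gave 7, where 41.3% changed. Without compound 6 F or vehicle D, E or G, or with the Cy3 channel alone, 1 fell. The median with compound 6 was -0.26, against -0.03 for all genes. No gene of the list changed with compound 2 or compound 9, where 5.3% and 0% of all genes did. With the letter as a block 4 fell with compound 2, where 17.3% of all genes changed. Ruvbl1 was higher with compound 6 than after withdrawal by 0.76 ± 0.14 (limma adjusted p = 0.000943).

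The corepressors through which the Mxd proteins act split in direction. Ncor1, a nuclear receptor corepressor that also joins Sin3 complexes, averaged 2.05 ± 0.09 with compound 6 and 1.60 ± 0.08 after withdrawal, against 1.24 ± 0.15 in vehicles D to G (SD, n = 4 each). It averaged 1.29 ± 0.13 with compound 2 and 0.52 ± 0.03 with compound 9, against 0.50 ± 0.10 in vehicles A to C (SD, n = 3 each). The groups with compounds 6 and 2 did not overlap their vehicles, with changes of 0.81 ± 0.08 and 0.80 ± 0.09 (limma adjusted p = 1.41e-06 and 4.35e-05), and withdrawal gave 0.36 ± 0.08 (0.00384). Ncor1 was lower with compound 9 than with compound 2 (change -0.77 ± 0.09; limma adjusted p = 7.92e-05).

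Sin3a, the scaffold that Mxd proteins bind, went the other way. Its changes were -0.37 ± 0.10 after withdrawal, -0.55 ± 0.10 with compound 6 and -0.49 ± 0.12 with compound 2 (limma adjusted p = 0.0135, 0.000643 and 0.0161). Compound 9 was above compound 2 by 0.50 ± 0.12 (limma adjusted p = 0.0162). Of the 7 corepressor genes, 1 rose and 2 fell after withdrawal, 1 rose and 3 fell with compound 6, and 1 rose and 1 fell with compound 2. Of all genes 20.7%, 24.8% and 5.3% changed in these comparisons. The list's medians were -0.14, -0.28 and -0.09, against -0.01, -0.03 and 0.00 for all genes. With the letter as a block 6 fell with compound 6, where 41.3% of all genes changed. The genes that fell after withdrawal were 0 without vehicle E or G or with the Cy3 channel alone, and the one that fell with compound 2 was lost without compound 2 A or C, or vehicle A or C.

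Of the further network members Mga, Mlxip and Mlxipl, 1 passed against vehicle, Mlxip with compound 6 (-0.27 ± 0.09; limma adjusted p = 0.0355). That call was lost with each of the other scalings, and without compound 6 D, E or F or vehicle D, E or G.

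Markers of cell state moved in the same samples, and their part in the results above was not tested. Of 11 measured proliferation genes 10 fell after withdrawal, and with compound 6 4 fell and 1 rose. With the letter as a block 9 fell and 1 rose with compound 6, where 41.3% of all genes changed. Of all genes 7.27% rose and 13.4% fell after withdrawal, and 11.4% rose and 13.4% fell with compound 6. The list's median level, as log2 of sample over reference, ran from -4.17 to -3.25 in withdrawn cultures and -3.72 to -2.82 with compound 6. In vehicles D, E and G it was -1.84, -1.83 and -1.89, while vehicle F alone lay at -4.14. In letters A to C it was low in all groups. It ran from -4.28 to -4.01 with compound 2, -4.27 to -4.18 with compound 9 and -4.15 to -4.11 in vehicles. Of 6 stem cell genes 6 fell after withdrawal and 5 with compound 6. With compound 2, 2 of the 6 fell and 1 rose, and 2 proliferation genes rose. Of all genes 2% fell and 3.31% rose with compound 2. With compound 6, 4 of 7 enteroendocrine genes rose. These were Neurog3 by 1.42 ± 0.40 and Gcg by 1.93 ± 0.41 (limma adjusted p = 0.0137 and 0.0021), Pyy by 0.80 and Neurod1 by 0.65. The other enteroendocrine markers, Chga, Chgb and Cck, changed by 0.18, 0.08 and 0.06 and did not pass. That list's median level ran from 5.00 to 5.41 with compound 6 and 3.25 to 4.10 after withdrawal, against 3.43 to 4.29 in vehicles D to G. In letters A to C the enteroendocrine medians were 0.17 to 0.77 with compound 2 and 0.18 to 0.52 with compound 9, against 0.06 to 0.57 in vehicles. Of 6 leukocyte genes, 5 rose with compound 6, Csf1r by 1.05 ± 0.15. With compound 6, 4 of 6 goblet, 3 of 6 fibroblast and 3 of 10 enterocyte genes also rose, and after withdrawal 4 of 10 enterocyte genes rose.

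The 5 genes whose pattern was most like that of Myc over the 12 arrays of letters D to G were Rexo2 (Pearson r = 0.99), Txnrd3, Pes1, 1810029B16Rik and Ippk (r = 0.98 each). The 12 arrays share letters and slides, and these correlations are descriptions. Over the 9 arrays of letters A to C, where Myc itself varied little (SD 0.19, against 1.06 in letters D to G), r was -0.07, 0.16, 0.64, -0.33 and -0.62 for the same genes. After withdrawal their changes were -0.61, -0.75, -0.82, -1.19 and -0.36, and with compound 6 they lay between -0.15 and 0.05. The genes were picked on these same arrays, so changes that follow those of Myc come with the choice. Among the other members, r over letters D to G was 0.61 for Mxd3, 0.60 for Mycl1 and 0.54 for Mycn. They ranked only 3688, 3806 and 4405 of 21386 genes in likeness to Myc. The value was negative for Mlx (-0.78), Mxd1 (-0.71), Mnt (-0.59), Max (-0.45) and Mxd4 (-0.39). Over letters A to C these signs did not hold for most members. There r was 0.07 for Mxd3, -0.10 for Mycl1 and 0.12 for Mycn, whose probe was at background. It was 0.66 for Mlx, 0.35 for Mxd1, 0.09 for Mnt, 0.66 for Max and 0.53 for Mxd4.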

How the data were processed

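Two-colour Agilent arrays were read from the deposited scanner files. Per the file headers, Agilent Feature Extraction 10.7.3.1 produced the intensity values and a log10 ratio of Cy5 over Cy3 per spot. The authors' deposited series matrix held log2 ratios, which matched the scanner log ratios as sample over reference. Mean intensities were background-corrected (normexp, offset 50) and loess-normalized within arrays with limma 3.58.1 in R 4.3.3. Control spots had no weight in the loess fit. Control and non-uniform spots were left out after normalization. Spots of a probe were averaged and log2 sample over reference was fitted with group and letter set as terms over 21 arrays and 21387 genes. The number of arrays limits the precision. The fit was tested on simulated data. Of 21 pairs of arrays with the same letter, every pair's deviations correlated (0.208 to 0.749), so the letter was used as a block in an alternative fit. For other letters the median was -0.179. Deviations were taken from group means, which makes that median negative where same letters correlate, so it is no separate contrast. Genes named are the members, the genes of the Myc-related lists and the 5 genes most like Myc in letters D to G. Members and lists were chosen with earlier results of these data known. Bounds used Cy3 signals after loess and Aquantile normalization. Alternatives were Agilent's log ratios, the Cy3 channel alone, the series matrix, no filter on dim probes, the mean over probes, no set term, the letter or slide as a block, fewer arrays, and single arrays or letter F left out. Figures were drawn with matplotlib. Some results are not reported here.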

Additional observations from a re-analysis of the deposited data

Results flagged for a closer look

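Mycl1 in withdrawn culture F lay at -3.72, apart from -3.57, -3.57 and -3.54 in withdrawn cultures E, G and D, and its gap to the nearest culture over the group's range (0.833) was above Dixon's 95% critical value for 4 samples. About 1 in 20 such groups would exceed it by chance, and 26 groups were tested. Mlx in withdrawn culture F (ratio 0.826) and Myc in vehicle F (ratio 0.821) lay just under that value.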

How the results depend on the processing

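Alternatives on the Myc-related lists were chosen after the data were seen, and a change of sign was counted only where one of the values was called. Myc was called after withdrawal and between compound 6 and withdrawal in every alternative run, with changes of -1.39 to -2.87 and 1.88 to 2.74. Without the set term, which mixes letters A to C with D to G, Myc turned to 1.46 for compound 6 against compound 2 and 1.44 against compound 9, and Mycl1 to 0.48 for compound 6 against compound 9. Of the other members' values, the letter as a block brought 16 of 64 past the threshold and lost none, leaving out letter F brought 10, and no filter on dim probes or the mean over probes changed no call. Mxi1 was never measured, and background limits Mycn in letters A to C and Mxd3 in most cultures. The cause of the changes below was not tested.

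With the replicate block, the genes called were 8359 for withdrawal, 3709 for compound 2, 8823 for compound 6 and 1 for compound 9, each against vehicle, 1968, 4659 and 7290 for compound 6 against compound 2, compound 9 and withdrawal, and 3402 for compound 9 against compound 2. In that order, the members called were 6, 3, 3 and 0, then 1, 2 and 4, then 2. Without the set term, the genes called were 2097 for withdrawal and 3634 for compound 2 against vehicle, 9080, 8919 and 1136 for compound 6 against compound 2, compound 9 and withdrawal, and 225 for compound 9 against compound 2. The members called were 1 for withdrawal, 2 for compound 2, and 6, 3 and 1 for compound 6 against compound 2, compound 9 and withdrawal. With only the arrays compared, the genes called were 2082, 647 and 3080 for withdrawal, compound 2 and compound 6 against vehicle, and 45 and 490 for compound 6 against compounds 2 and 9. The members called were 1 for withdrawal, 0 for compound 6, and 1 for compound 6 against withdrawal. Without letter F, the genes called were 6825, 2302 and 4 for withdrawal, compound 2 and compound 9 against vehicle, 1533 and 3466 for compound 6 against compounds 2 and 9, and 2082 for compound 9 against compound 2. The members called were 4, 2 and 2 for withdrawal, compound 2 and compound 6 against vehicle, and 2 each for compound 6 against compounds 2 and 9. For compound 6 against compound 2, Agilent's log ratios gave 36 genes, the Cy3 channel 37 and the series matrix 57. Against compound 9 the first of these gave 895, the Cy3 channel 798, and the series matrix 1 member. Agilent's log ratios gave 1 member for withdrawal. For compound 6 against withdrawal, both they and the series matrix gave 1 member, and for compound 9 against vehicle the series matrix gave 3 genes.

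Leaving out single arrays gave 2414 to 7383 genes for withdrawal, 546 to 894 for compound 2, 3747 to 7323 for compound 6 and 0 to 0 for compound 9 against vehicle. It gave 45 to 1586, 751 to 3620 and 2281 to 3026 for compound 6 against compound 2, compound 9 and withdrawal, and 498 to 826 for compound 9 against compound 2. Members called were 1 to 5, 0 to 1, 0 to 3 and 0 to 0 against vehicle, then 0 to 1, 0 to 1 and 1 to 4, then 0 to 0. Myc changed by -2.40 to -1.93, -0.11 to 0.18, -0.44 to 0.03 and -0.04 to 0.20 against vehicle, then by -0.48 to -0.01, -0.50 to -0.03 and 1.88 to 2.05, then by -0.06 to 0.17.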
